A study of Mus musculus with 9 samples.

Results

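YAP and TAZ are transcriptional coactivators, and the TEAD proteins are the DNA-binding factors that carry them to their target genes. The 10 genes described here fall into 3 roles. The coactivators are Yap1 (gene ID 22601) and Wwtr1 (97064), which encodes TAZ. The factors are Tead1 (21676), Tead2 (21677), Tead3 (21678) and Tead4 (21679). The targets are Ctgf (14219), Cyr61 (16007), Ankrd1 (107765) and Amotl2 (56332), which are widely used as readouts of YAP and TAZ. These 10 were picked by symbol from the 19094 genes that the files list. All 10 were found, and all 10 were among the 13154 genes that passed the filter on low counts.

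RNA was sequenced from 3T3-L1 cells, an established mouse line of fibroblast-like preadipocytes that stores lipid once induced, on day 0, day 4 and day 8 of differentiation, with 3 samples per day. Day 0 cells were nearly confluent in high-glucose DMEM with fetal bovine serum and had received no inducer. Day 4 cells had been given dexamethasone, IBMX and insulin for 2 days and then insulin without the other agents for 2 days, and day 8 cells had 4 further days with insulin. Day 4 against day 0 is the early phase, day 8 against day 4 the late phase and day 8 against day 0 the whole process, so every pair of comparisons shares a set of samples. All samples came from this single cell line, which limits it as a model of fat tissue, and the medium, the time in culture and the stage of the cells change together and cannot be told apart. Cells of a stage were pooled, and no source used here says that the 3 samples of a day were separate cultures, so p-values measure the spread between these samples, which may be technical. Each sample held between 18216114 and 20452144 expected counts, the estimated reads per gene before any scaling.

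In the Hippo pathway, the MST kinases and the scaffold SAV1 activate the LATS kinases, and LATS phosphorylates YAP and TAZ. Phosphorylated YAP and TAZ stay in the cytoplasm or are degraded, whereas the unphosphorylated proteins enter the nucleus, bind TEAD and switch on genes such as Ctgf and Cyr61. Spread cells on stiff support are known for active YAP and TAZ, and crowded or rounded cells for inactive YAP and TAZ. In mesenchymal precursors TAZ is known to restrain PPARG, the master regulator of fat cells. Only mRNA was measured here, and neither the location nor the phosphorylation of the proteins was.

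The labels call every sample adipocytes, and the markers differed from that on day 0. Adiponectin (Adipoq) was at 0.503 FPKM on day 0, 466.6 on day 4 and 819.8 on day 8 (means, n = 3), where FPKM is the deposited level per length of the gene and per depth of the sample. Perilipin 1 (Plin1) was at 0.177, 130.7 and 243.0 FPKM on the same days, and leptin (Lep) had no value above 0 in the day 0 samples. All 10 adipocyte markers were upregulated in the early phase at an adjusted p under 0.05 and over 2-fold, as were 9.77% of all genes. Adipoq, Plin1, Lep, Cd36, Slc2a4 and Cfd held at most 15 expected counts per day 0 sample. They passed the filter on low counts through later days alone, so the filter favoured a rise. The day 0 samples are called preadipocytes here, the name that the authors use for this stage. The labels' extraction text also names dorsal root ganglia. Of 10 markers of those neurons, 9 stayed at or under 0.44 FPKM in every sample. The exception was the ATP receptor P2rx3, at 23.1, 5.05 and 18.2 FPKM on day 0, day 4 and day 8 (means, n = 3).

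In the early phase, the targets fell and Tead4 rose. Ctgf was 13.0-fold, Ankrd1 23.2-fold and Cyr61 2.92-fold lower on day 4 than on day 0, and Tead4 was 3.13-fold higher. The target Amotl2 was 1.46-fold lower, a smaller fall than that of Tead1 (1.51-fold). The coactivator genes changed less than the targets, with Yap1 level and Wwtr1 lower by 1.27-fold. In the late phase Tead4 fell by 4.68-fold and Wwtr1 rose by 1.54-fold. Across the whole process Ctgf was 32.5-fold, Ankrd1 11.9-fold and Cyr61 4.90-fold lower. The values of Ctgf and Ankrd1 rest on 2 to 14 expected counts per later sample, and both genes passed the filter on low counts through day 0 alone. In these bulk samples, fewer cells that express a gene and less of its RNA per cell cannot be told apart.

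Calls were made at an adjusted p under 0.05 (edgeR quasi-likelihood test, Benjamini-Hochberg over all genes tested), with or without a fold change above 2. At over 2-fold, 1 of the 10 members was called higher in the early phase, where 9.77% of all genes were, and 3 were called lower, where 7.98% were. In the late phase 0 members were called higher and 1 lower, against 4.24% and 2.81% of all genes. In the whole process 0 were called higher and 3 lower, against 10.3% and 7.7%. Of the 3 called lower in the early phase and in the whole process, Ctgf and Ankrd1 passed the filter on low counts through day 0 alone. At any fold, 1 member was higher and 7 lower in the early phase (35.5% and 33.7% of all genes), 2 were higher and 5 lower in the late phase (22.5% and 22.7%), and 1 was higher and 9 lower in the whole process (34.8% and 36.2%).

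The median log2 fold change of the 10 members was -0.50 in the early phase, -0.15 in the late phase and -0.49 in the whole process, where the medians of all genes were 0.02, -0.01 and -0.02. The samples of both days did not overlap in CPM (the share of a count in the depth of its sample, scaled by TMM) for 8 members in the early phase, as for 72.3% of all genes. The same held for 8 members in the late phase, against 54.5% of all genes, and for all 10 in the whole process, against 75.5%. Most members, like most genes of these samples, thus differed between days without overlap. Counted from the lowest log2 fold change among 13154 genes, Ankrd1 stood at place 20 and Ctgf at place 53 in the early phase, and Ctgf at place 8 and Ankrd1 at place 40 in the whole process. Cyr61 stood at place 547 and place 204 in the same comparisons, and Tead4 at place 700 from the highest in the early phase. Ctgf and Ankrd1 passed the filter on low counts through day 0 alone and held 2 to 14 expected counts per later sample. Their places therefore rest on few counts on the later days.

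**Figure D1:**
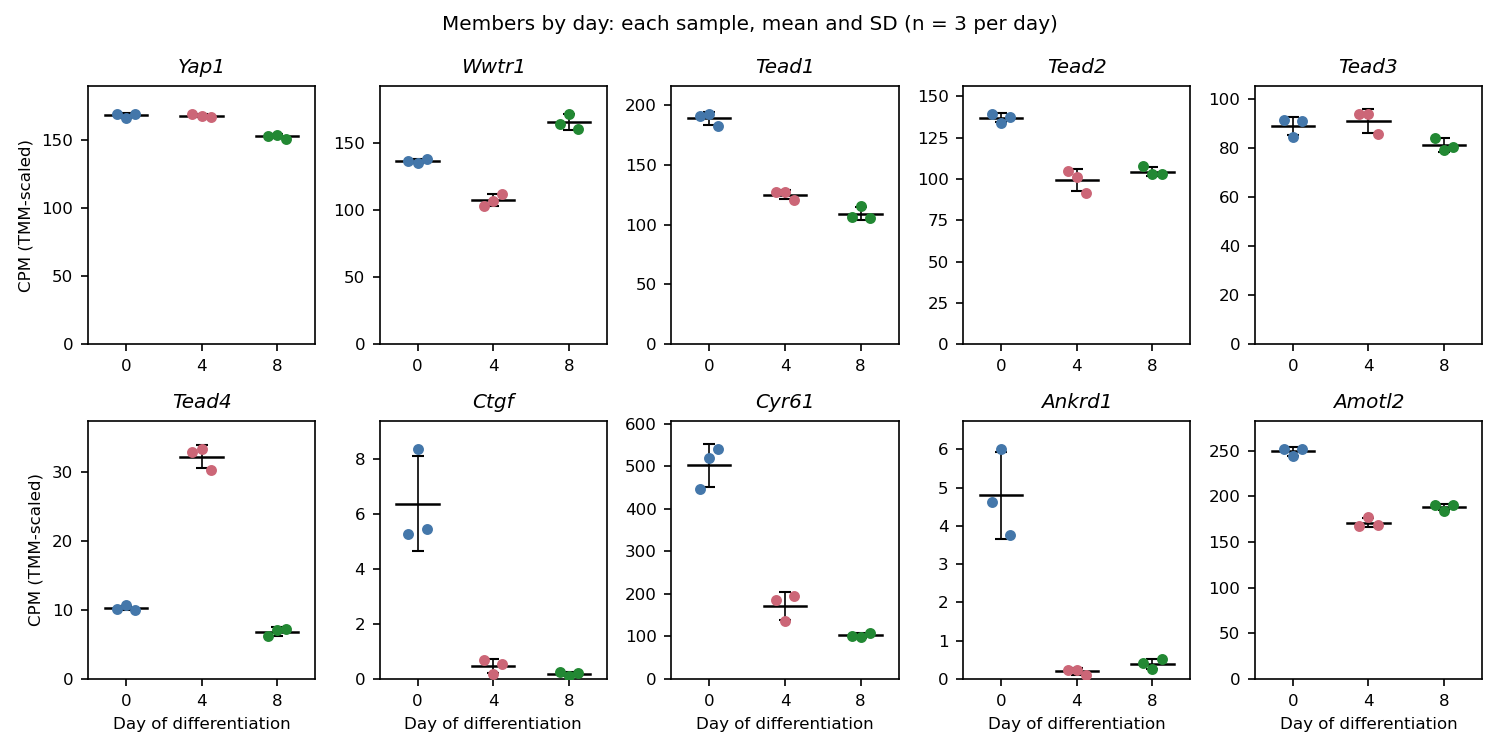
Level of each of the 10 members by day, in TMM-scaled CPM on axes that start at 0. Points are samples, bars are the mean and SD (n = 3 per day). Yap1 stayed between 151.1 and 169.5 CPM in all 9 samples, whereas Tead4 peaked on day 4 and Ctgf, Cyr61 and Ankrd1 were highest on day 0.

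With TMM scaling, Yap1 changed less than Wwtr1 in each comparison. Its level was 41.75, 41.51 and 41.79 FPKM in the day 0 samples, 39.99, 39.42 and 39.69 on day 4, and 35.44, 35.27 and 34.2 on day 8. In CPM the day 0 samples (166.3 to 169.5) and the day 4 samples (167.2 to 169.2) overlapped, and the day 8 samples (151.1 to 153.9) lay below both. Early in differentiation the log2 fold change of Yap1 was -0.00 (SE 0.04, adjusted p = 0.96). It was -0.14 in the late phase (SE 0.04, adjusted p = 0.012) and -0.14 in the whole process (SE 0.04, adjusted p = 0.006). The late call was lost without day 4 replicate 2 (adjusted p = 0.073) or day 8 replicate 3 (0.11), with a range of 0.0015 to 0.11 over the alternatives. The whole-process call was lost without day 8 replicate 3 (0.055, range 4.5e-05 to 0.055), and the log2 change was -0.25 when the library size alone set the scale. That scaling moved the median of all genes by -0.11 in the whole process.

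Wwtr1, the gene of TAZ, fell and then rose above its starting level. The day 0 samples had 29.48, 29.42 and 29.84 FPKM, the day 4 samples 21.35, 21.95 and 23.24, and the day 8 samples 33.22, 34.42 and 31.82. No sample of a day overlapped with those of another. The log2 change was -0.35 in the early phase (SE 0.05, adjusted p = 6e-06), 0.62 in the late phase (SE 0.05, adjusted p = 2.1e-08) and 0.28 in the whole process (SE 0.05, adjusted p = 5.5e-05). The last value was 0.17 with the library size alone, where that of Yap1 was -0.25, so Yap1 then changed more.

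The Yap1 and Wwtr1 transcripts therefore changed in their ratio. Yap1 FPKM divided by Wwtr1 FPKM was 1.42, 1.41 and 1.4 on day 0, 1.87, 1.80 and 1.71 on day 4, and 1.07, 1.02 and 1.07 on day 8. The ratio was highest on day 4 and nearest to parity on day 8, and the 3 days did not overlap. Each pair of days gave p = 0.1 in an exact two-sided permutation test, the smallest p that 3 samples against 3 allow, and 0.114 after Benjamini-Hochberg adjustment over 24 such comparisons. The summed FPKM of both genes was 71.3 ± 0.351 on day 0, 61.9 ± 0.909 on day 4 and 68.1 ± 1.89 on day 8 (mean ± SD, n = 3).

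Among the factors, Tead4 had a transient peak. It was at 3.42, 3.71 and 3.43 FPKM in the day 0 samples, 10.77, 10.93 and 10 on day 4, and 2.02, 2.25 and 2.31 on day 8. Every day 4 sample was above every other sample, and every day 8 sample was below every day 0 sample. The log2 change was 1.65 in the early phase (SE 0.08, adjusted p = 2.1e-11) and -2.23 in the late phase (SE 0.08, adjusted p = 6.3e-12), which was place 77 from the lowest of 13154 genes. Across the whole process Tead4 fell by 0.58 on the log2 scale (SE 0.09, adjusted p = 4.4e-05), or 1.49-fold.

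Tead1, a widely expressed factor of the family, fell at each step. Its day 0 samples had 20.31, 20.8 and 19.47 FPKM, its day 4 samples 13.06, 12.98 and 12.46, and its day 8 samples 10.7, 11.41 and 10.44. The 3 days did not overlap. The log2 fold change of Tead1 was -0.60 in the early phase (SE 0.05, adjusted p = 1.5e-08), -0.20 in the late phase (SE 0.05, adjusted p = 0.0042) and -0.79 in the whole process (SE 0.05, adjusted p = 4.6e-10). Without day 8 replicate 3 the late change was -0.15 and was not called (adjusted p = 0.062, range 0.00089 to 0.062).

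Tead2 was the most abundant TEAD transcript per length on all 3 days. It had 68.47, 66.65 and 67.58 FPKM on day 0, 49.35, 47.29 and 43.41 on day 4, and 49.58, 47.06 and 46.31 on day 8. The day 0 samples were above all others, and the day 4 and day 8 samples overlapped. The log2 change was -0.47 in the early phase (SE 0.05, adjusted p = 6.2e-07), 0.08 in the late phase (SE 0.05, adjusted p = 0.26) and -0.39 in the whole process (SE 0.05, adjusted p = 4.3e-06).

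Tead3 varied least of the TEAD genes. The levels were 36.12, 33.81 and 36.03 FPKM on day 0, 35.45, 35.43 and 32.93 on day 4, and 31.24, 28.99 and 29.19 on day 8. The day 0 and day 4 samples overlapped, and the day 8 samples lay below both. In the early phase the log2 change was 0.03 (SE 0.05, adjusted p = 0.59), -0.02 with upper-quartile factors and -0.03 with the library size alone, so its sign depended on the scaling. In the late phase it was -0.17 (SE 0.05, adjusted p = 0.018) and in the whole process -0.13 (SE 0.05, adjusted p = 0.035). The late call was lost without day 4 replicate 1 (0.057), day 4 replicate 2 (0.15), day 8 replicate 2 (0.081) or day 8 replicate 3 (0.12), over a range of 0.0036 to 0.15. The whole-process call was lost with RLE factors (0.059), with no filter (0.057), with the Wald test of DESeq2 (0.088), and without day 0 replicate 1 (0.11), day 0 replicate 3 (0.11), day 4 replicate 2 (0.071), day 8 replicate 2 (0.13) or day 8 replicate 3 (0.15), over a range of 0.00056 to 0.15.

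These changes altered the makeup of the TEAD transcripts. Tead4 made up 2.78 ± 0.164% of the summed FPKM of the 4 TEAD genes on day 0, 10.1 ± 0.170% on day 4 and 2.43 ± 0.239% on day 8 (mean ± SD, n = 3). Tead1 made up 16.0 ± 0.636%, 12.3 ± 0.306% and 12 ± 0.656% on the same days. Tead4 thus came close to Tead1 on day 4, when the Tead1 samples had 12.46 to 13.06 FPKM and the Tead4 samples 10 to 10.93. Tead2 held 53.4 ± 0.0441%, 44.6 ± 0.771% and 52.6 ± 0.310%, and Tead3 27.9 ± 0.746%, 33.1 ± 0.376% and 32.9 ± 0.556%.

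The TEAD shares did not overlap between days except for Tead1 and Tead3 between day 8 and day 4 (exact two-sided permutation tests, p = 0.5 and 0.7). All other pairs of days gave the smallest possible p of 0.1 in this exact test (0.114 after adjustment). The share of Tead2 was 0.724 percentage points lower on day 8 than on day 0 in FPKM, and 2.41 points higher when CPM took the place of FPKM, so this direction rested on the scaling for length. The size of other differences rested on it too, since from day 0 to day 4 the share of Tead1 changed by -3.68 points in FPKM and -8.43 in CPM, and that of Tead2 by -8.80 and -3.70. From day 0 to day 8 the share of Tead1 changed by -3.96 points in FPKM and -8.27 in CPM. The summed FPKM of the 4 genes fell from 127 ± 1.68 on day 0 to 105 ± 5.20 on day 4 and 90.5 ± 2.73 on day 8 (mean ± SD, n = 3), with no overlap between days.

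**Figure D2:**
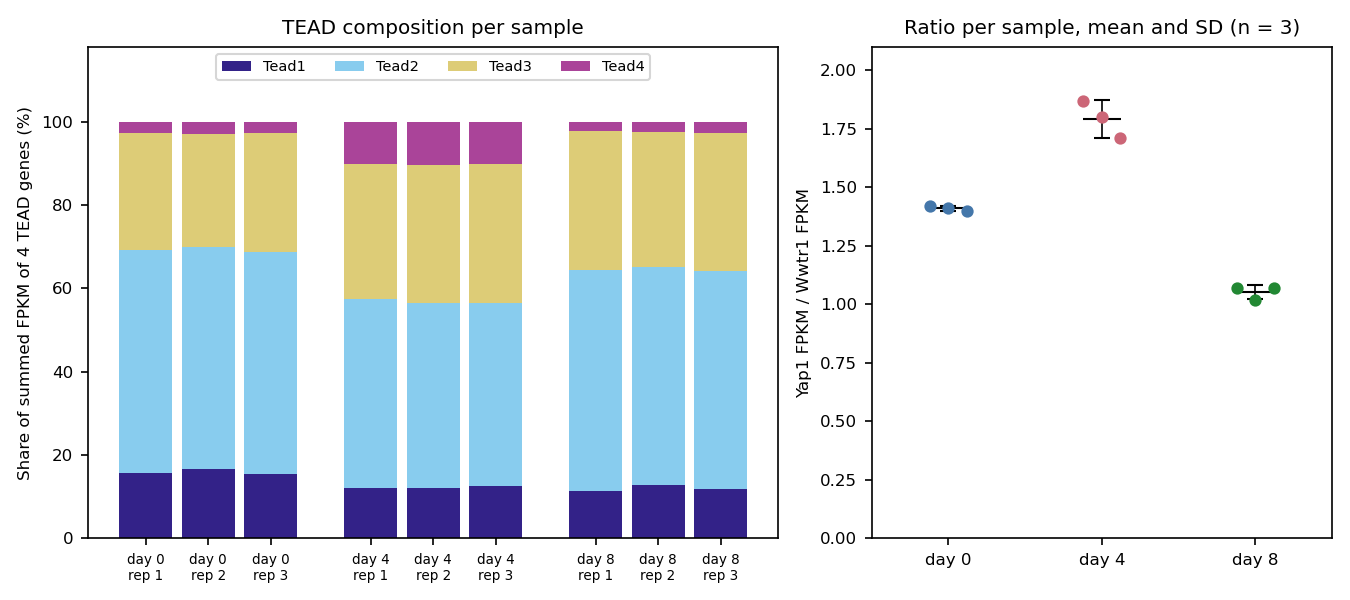
Left, the share of each TEAD gene in the summed FPKM of the 4 genes, in percent, with a stacked bar for each sample. Right, the ratio of Yap1 to Wwtr1 FPKM on an axis from 0, with samples as points and the mean and SD as bars (n = 3 per day). The Tead4 share was 9.91% to 10.3% in the day 4 samples and at most 2.97% in the others, and the ratio was highest on day 4.

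Of the 4 targets, 3 fell by over 2-fold in the early phase and whole process (7.98% and 7.7% of all genes), and Amotl2 fell less. Of these 3, Ctgf and Ankrd1 passed the filter on low counts through day 0 alone. With at least 10 counts in every sample both were untested, and 1 member was called lower at over 2-fold in each of these comparisons. The promoters of the targets are shown as a description, since TEAD proteins bind DNA. The windows are from RefSeq (GRCm38.p6) and hold 250 bases before and 50 bases after an annotated start, and the table matched 7 of the 10 members. Tead1, Tead4 and Ctgf had no match. The 250 bases before the start are printed 5′ to 3′ on the strand of the gene, with the TEAD motif GGAATG or its reverse complement CATTCC in capitals.
Cyr61, chr3:145649986-145650235, minus strand: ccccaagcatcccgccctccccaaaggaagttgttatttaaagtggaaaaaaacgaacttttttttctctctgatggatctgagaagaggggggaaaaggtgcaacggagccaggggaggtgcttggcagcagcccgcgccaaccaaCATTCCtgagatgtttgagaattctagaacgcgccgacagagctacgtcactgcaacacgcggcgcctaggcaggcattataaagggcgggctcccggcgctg
Ankrd1, chr19:36119845-36120094, minus strand: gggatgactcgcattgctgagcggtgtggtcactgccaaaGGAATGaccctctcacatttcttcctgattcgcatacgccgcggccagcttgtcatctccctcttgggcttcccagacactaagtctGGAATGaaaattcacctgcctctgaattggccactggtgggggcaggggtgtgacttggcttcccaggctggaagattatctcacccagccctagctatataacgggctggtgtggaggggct
Amotl2, chr9:102717554-102717803, plus strand: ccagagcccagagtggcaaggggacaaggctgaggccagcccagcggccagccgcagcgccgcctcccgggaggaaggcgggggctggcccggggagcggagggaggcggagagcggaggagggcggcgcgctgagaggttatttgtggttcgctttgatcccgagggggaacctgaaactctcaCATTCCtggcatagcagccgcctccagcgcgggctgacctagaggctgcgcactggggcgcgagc

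In these windows the motif began 103 bases before the start of Cyr61, 210 and 123 bases before that of Ankrd1, and 65 bases before that of Amotl2. The start of Cyr61 in this table lay outside its GENCODE transcript, so distances for Cyr61 depend on the annotation. Yap1 (141 bases before), Wwtr1 (136 and 170 bases before, in 2 overlapping windows that hold the same site) and Tead3 (182 in 1 window, 123 and 114 in another, which held a further match 2 bases after the start) held it too, and Tead2 did not. Searched on both strands, GGAATG occurred in 6 of the 7 members with a window, or 8 of 10 windows, where 14.7% of all 32851 windows of 300 bases held it. At least 2 matches, as in Ankrd1 and in the second window of Tead3, occurred in 1.36% of all windows. The AP-1 motif TGANTCA, for the partner factors that often bind near TEAD, occurred in 0 of the 10 windows and in 7.81% of all, so it overlapped no TEAD match here. A match of letters is a description of the sequence, and binding was not measured.

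Ctgf, also named Ccn2, encodes a secreted matrix protein that promotes fibrosis and is the most used YAP target. It had 112, 160 and 116 expected counts on day 0, 14, 4 and 11 on day 4, and 5, 2 and 4 on day 8. In FPKM this was 2.26, 3.63 and 2.34, then 0.29, 0.08 and 0.23, then 0.1, 0.04 and 0.08. All day 0 samples were far above the rest, and the day 4 and day 8 samples overlapped. Ctgf had a log2 change of -3.70 in the early phase (SE 0.30, adjusted p = 1.7e-08) and -5.02 in the whole process (SE 0.37, adjusted p = 3.6e-09).

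For the late phase the log2 fold change of Ctgf was -1.32 (SE 0.59, adjusted p = 0.079). It was called with the Wald test of DESeq2 (0.046), with edgeR's exact test (0.03), without day 0 replicate 2 (0.049) and without day 4 replicate 2 (-1.67, 0.029), over a range of 0.029 to 0.31. The summed counts were 388 on day 0, 29 on day 4 and 11 on day 8. Scaled to library size, day 0 was 13.0 times day 4 (95% exact interval 8.93 to 19.7) and 33.3 times day 8 (18.4 to 67.3), and such intervals cover counting error only. On log2(FPKM + 1), where low levels are compressed, the early change was -1.63 and the whole change -1.78. A gene on the opposite strand, Gm15270, covers 23.2% of the exon bases of Ctgf (GENCODE vM21), and whether the counting used strand is not given in the sources used here.

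Cyr61, also named Ccn1, encodes another secreted protein of the CCN family, which binds integrins. It was the most abundant member on day 0 and day 4. Its samples had 228.5, 269 and 277.73 FPKM on day 0, 90.78, 66.1 and 96.75 on day 4, and 48.44, 47.01 and 50.98 on day 8. The 3 days did not overlap, and each later day was lower. The gene had a log2 change of -1.55 in the early phase (SE 0.10, adjusted p = 1.3e-09), -0.75 in the late phase (SE 0.11, adjusted p = 2.9e-05) and -2.29 in the whole process (SE 0.11, adjusted p = 1.5e-11). At day 8 it no longer stood above Tead2, whose samples of 46.31 to 49.58 FPKM overlapped with it.

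Ankrd1 encodes an ankyrin repeat protein of the nucleus and the sarcomere that responds to mechanical load. It had 98, 115 and 80 expected counts on day 0, 5, 5 and 2 on day 4, and 8, 5 and 10 on day 8, or 2.23 to 3.59, 0.06 to 0.14 and 0.14 to 0.29 FPKM. The day 0 samples were above all others, and in counts both later days stood near the floor of 3 counts per sample used as the limit of detection. Ankrd1 had a log2 change of -4.54 in the early phase (SE 0.33, adjusted p = 3.5e-09) and -3.57 in the whole process (SE 0.29, adjusted p = 1.5e-08). In the late phase the log2 change was 0.96 (SE 0.53, adjusted p = 0.15). Day 0 had 23.8 times the summed counts of day 4 after scaling to library size (95% exact interval 13.4 to 46.6). On log2(FPKM + 1) the early change was -1.78 and the whole change -1.64.

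Amotl2 is both a target and an inhibitor, since angiomotin proteins bind YAP and TAZ and hold them outside the nucleus. It had 61.94, 60.64 and 62.09 FPKM on day 0, 39.53, 41.5 and 39.95 on day 4, and 43.95, 42.14 and 43.07 on day 8. The 3 days did not overlap, and day 4 was lowest. Its early change was -0.54 on the log2 scale (SE 0.04, adjusted p = 1.3e-08) and its change was -0.40 in the whole process (SE 0.04, adjusted p = 4.4e-07), and its late change was 0.14 (SE 0.04, adjusted p = 0.017). The late call was lost with the library size alone (0.09, adjusted p = 0.088), with limma on log2(FPKM + 1) (0.09, adjusted p = 0.061), with limma on log2(FPKM + 0.1) (0.09, adjusted p = 0.062) and without day 8 replicate 1 (0.13, adjusted p = 0.053), over a range of 0.0036 to 0.088.

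**Figure D3:**
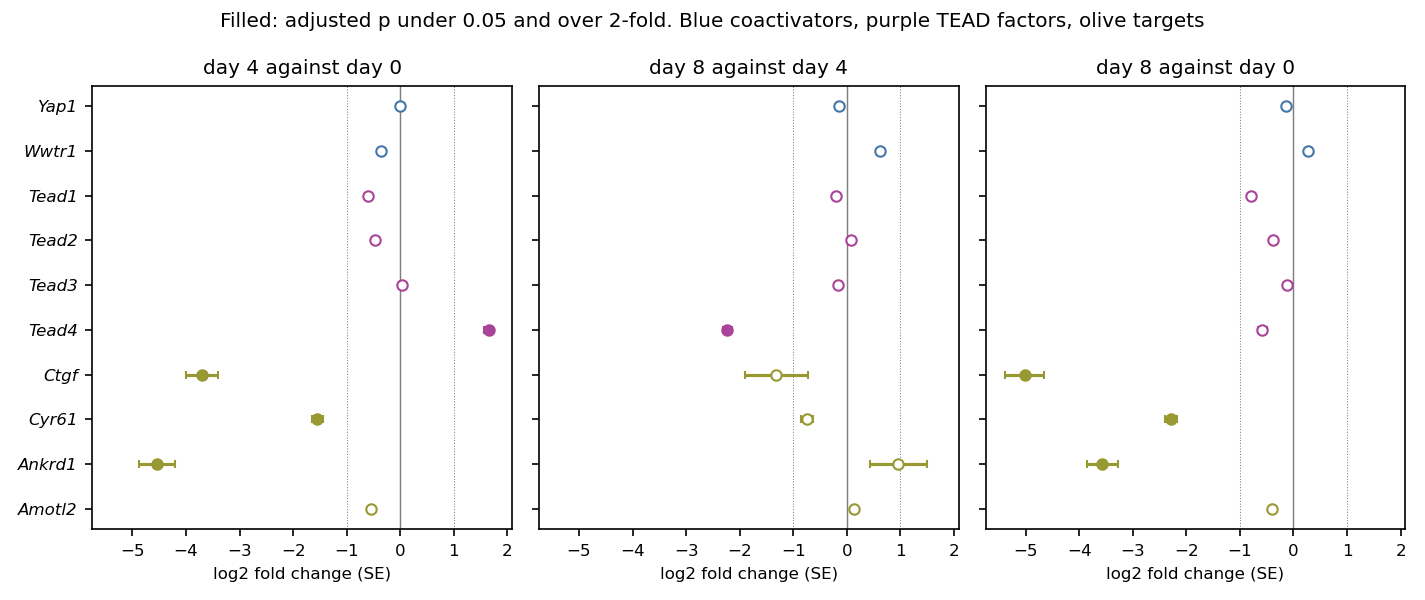
Log2 fold change of each member in the 3 comparisons, with SE as bars and dotted lines at a 2-fold change. Filled points were called at an adjusted p under 0.05 and over 2-fold. Ctgf, Cyr61 and Ankrd1 lie left of the 2-fold line in the early phase and whole process, and Tead4 moves from 1.65 in the early phase to -2.23 in the late phase.

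Cyr61 and Ctgf both fell after day 0, and the ratio of their levels rose. Cyr61 FPKM was 98.0 ± 22.5 times that of Ctgf on day 0, 520 ± 271 times on day 4 and 766 ± 363 times on day 8 (mean ± SD, n = 3). The later ratios rest on Ctgf samples of 4 to 14 expected counts on day 4 and 2 to 5 on day 8, so their size is imprecise. The day 4 and day 8 samples overlapped (p = 0.5), and both lay above day 0 (p = 0.1, exact two-sided permutation tests, the smallest possible). Per length, the order on day 0 was Cyr61, Tead2, Amotl2, Yap1, Tead3, Wwtr1 and Tead1, followed by Tead4, Ankrd1 and Ctgf, where Tead4 and Ankrd1 overlapped, as did Ankrd1 and Ctgf. At day 4 Amotl2 and Yap1 overlapped, as did Ctgf and Ankrd1 at the bottom. At day 8 Cyr61 and Tead2 overlapped, as did Yap1 and Wwtr1, which had moved above Tead3.

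Genes with the most similar course to each target were found by Pearson correlation of log2 CPM over the 9 samples, which share 3 days and so follow any difference between days. For Ctgf they were Zfp275 (r = 0.9900), Kansl1l (0.9892) and Ttc9c (0.9888) among 11466 genes. For Cyr61 they were 2810474O19Rik (r = 0.9958), Fnip1 (0.9949) and Rbm34 (0.9932). Ankrd1 was closest to Nme6 (r = 0.9962), Tmem192 (0.9953) and Ssrp1 (0.9929), and Amotl2 to Smad7 (r = 0.9952), Usp17la (0.9941) and Aff3 (0.9939). None of these 12 was a member.

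The members were set beside the other genes of the pathway. Of 21 genes of the Hippo kinase cascade 20 were tested, and at over 2-fold 0 were higher and 1 lower in the early phase (9.77% and 7.98% of all genes), 0 in either direction in the late phase (4.24% and 2.81%), and 0 higher and 1 lower in the whole process (10.3% and 7.7%). That gene was Wwc1, which encodes the scaffold KIBRA (early log2 fold change -1.39, SE 0.12, adjusted p = 2e-08). At any fold, 5 of the 20 rose and 11 fell in the early phase (35.5% and 33.7% of all genes), 3 rose and 8 fell in the late phase (22.5% and 22.7%), and 4 rose and 9 fell in the whole process (34.8% and 36.2%). The scaffold Sav1 came close to 2-fold, with 26.13, 27.43 and 27.29 FPKM on day 0, 51.52, 51.97 and 49.48 on day 4, and 28.42, 29.26 and 28.06 on day 8. Its log2 change was 0.99 in the early phase (SE 0.05, adjusted p = 1.3e-11) and -0.79 in the late phase (SE 0.05, adjusted p = 1e-09). Lats1 and Lats2, the kinases of YAP and TAZ, had early log2 fold changes of -0.33 and -0.36 (SE 0.05 each).

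Among 13 other proteins that act on YAP, TAZ, TEAD or the LATS kinases, 11 were tested. In the early phase 4 fell by over 2-fold and 0 rose (7.98% and 9.77% of all genes), and in the late phase 0 were called at over 2-fold in either direction (2.81% lower and 4.24% higher). The 4 were Ajuba (-1.25), a LIM protein that inhibits LATS, the angiomotin Amot (-1.24), Nphp4 (-1.19) and the phosphatase Ptpn14 (-1.07), which binds YAP. In the whole process 0 rose and 2 fell by over 2-fold (10.3% and 7.7% of all genes), namely Ajuba (-1.28) and Amot (-1.26). At any fold 3 rose and 6 fell in the whole process (34.8% and 36.2% of all genes). Vgll3 (-0.98), Ptpn14 (-0.81) and Nphp4 (-0.74) were among those that fell. The list's median log2 change was -0.50 in the early phase, 0.14 in the late phase and -0.53 in the whole process. Amot fell with Amotl2, from 26.58 to 27.59 FPKM in the day 0 samples to 9.64 to 12.15 on day 4, whereas Amotl1 changed by -0.15 on the log2 scale (SE 0.06, adjusted p = 0.04).

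Of 17 FAT, DCHS and polarity genes 12 were tested, and 1 rose and 2 fell by over 2-fold in the early phase (9.77% and 7.98% of all genes), 0 in either direction in the late phase (4.24% and 2.81%), and 1 rose and 2 fell in the whole process (10.3% and 7.7%). The giant cadherin Fat1 fell by 1.15 on the log2 scale in the early phase (SE 0.09, adjusted p = 1.3e-08). Fat2 fell from 76 summed counts on day 0 to 2 on day 4 (ratio 37.0, 95% exact interval 9.9 to 311), with 0.06 to 0.11 FPKM in the day 0 samples. Fat2, 1 of the 2 that fell, passed the filter on low counts through day 0 alone. Fjx1, whose Drosophila relative modifies FAT and DCHS, rose by 2.36 on the log2 scale in the early phase (SE 0.13, adjusted p = 7.5e-11).

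A wider signature of YAP and TAZ targets, which shares Lats2, Ptpn14 and Fjx1 with the lists above, did not move in a single direction. Of its 18 other genes 17 were tested, and 1 rose and 4 fell by over 2-fold in the early phase (9.77% and 7.98% of all genes), 1 rose and 0 fell in the late phase (4.24% and 2.81%), and 2 rose and 3 fell in the whole process (10.3% and 7.7%). At any fold 5 of the 17 rose and 11 fell in the early phase, 9 rose and 5 fell in the late phase, and 4 rose and 9 fell in the whole process, against the same shares of all genes as given for the kinase cascade. Gadd45a, a stress-induced growth arrest gene, fell by 1.92 on the log2 scale in the early phase (SE 0.07, adjusted p = 1.1e-12), with 50.27 to 54.61 FPKM on day 0 and 12 to 14.42 on day 4. It rose by 1.83 in the late phase (SE 0.07, adjusted p = 1.2e-11), to 44.53 to 47.76 FPKM. Crim1 (-1.24), Ptpn14 (-1.07) and Myof (-1.02) also fell in the early phase. Across the whole process Myof (-1.60), the kinase Nuak2 (-1.57) and the receptor Axl (-1.05) were lower, and Fjx1 (1.60) and the growth factor Tgfb2 (1.15) were higher. The early median of the signature was -0.36, and that of the 4 targets described above was -2.62. The size of the latter depends on the scale, since on log2(FPKM + 1) the early falls of Ctgf (-1.63) and Ankrd1 (-1.78) were smaller.

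Ctgf and Cyr61 belong to the CCN family of matricellular proteins, and 3 of its 4 other genes were tested. All 3 fell by over 2-fold in the early phase, as did 7.98% of all genes, namely Nov (-2.46, SE 0.17, adjusted p = 1.8e-09), Wisp2 (-1.76, SE 0.08, adjusted p = 1.2e-11) and Wisp1 (-1.0, SE 0.06, adjusted p = 3.6e-10). In the late phase 1 rose by over 2-fold, which was Wisp2 (1.15, SE 0.08, adjusted p = 1.8e-08), and at any fold all 3 rose, where 4.24% and 22.5% of all genes did. Wisp2 had 22.55 to 24.11 FPKM on day 0, 6.09 to 7.2 on day 4 and 12.99 to 15.16 on day 8. In the same phase the log2 fold change of Cyr61 was -0.75 and that of Ctgf -1.32, which was not called.

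**Figure D4:**
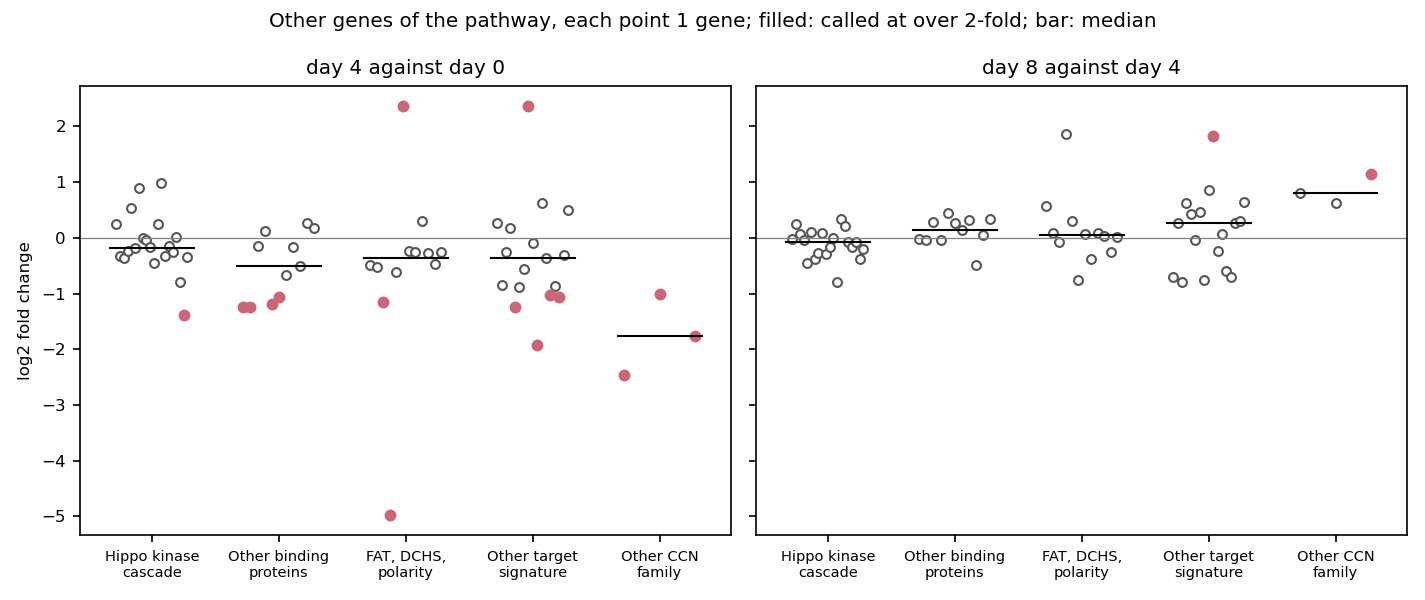
Log2 fold change of the tested genes of 5 other lists of the pathway in the early (left) and late (right) phase. Each point is a gene, filled points were called at an adjusted p under 0.05 and over 2-fold, and bars are list medians. In the early phase 1 of 20 genes of the kinase cascade and all 3 other CCN genes were called lower at over 2-fold. The share of all genes called lower in this way was 7.98%. Lats2, Ptpn14 and Fjx1 each appear in the signature and in 1 other list, so each is plotted again there.

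Markers of cells other than fat cells moved with some of these changes. Of 8 markers of preadipocytes and fibroblasts, 0 rose and 2 fell by over 2-fold in the early phase (9.77% and 7.98% of all genes), namely fibronectin (Fn1, -2.53, SE 0.10) and Dlk1 (-2.13, SE 0.06), and Fn1 was also lower in the whole process (-1.79). Late in differentiation 1 rose by over 2-fold, which was Dlk1 (1.24, SE 0.06, adjusted p = 9.3e-11), where 4.24% of all genes did. At any fold 1 rose and 6 fell in the early phase (35.5% and 33.7% of all genes), 5 rose and 3 fell in the late phase (22.5% and 22.7%), and 3 rose and 3 fell in the whole process (34.8% and 36.2%), with Pdgfra higher in the early phase (0.84, SE 0.05) and Col1a1 in the whole process (0.67, SE 0.05). Their summed level was 7110 to 7390 FPKM in the day 0 samples, 4640 to 5010 on day 4 and 5420 to 5600 on day 8, with Vim the most abundant on day 0 and day 4 and Col1a1 on day 8. The sum of the 10 adipocyte markers went from 144 to 149 FPKM on day 0 to 5390 to 7700 on day 4 and 8170 to 8980 on day 8, with Lpl the most abundant on day 0 and Fabp4 later. Their part in the changes of the members was not tested.

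Ankrd1 is also a gene of heart and skeletal muscle, and the 9 of 10 muscle markers that the files list summed to 2.34 to 3.25 FPKM on day 0, 2.27 to 2.74 on day 4 and 1.94 to 2.77 on day 8. Tnnt2 was the most abundant of them on day 0 and day 4 and Acta1 on day 8, since in the late phase Acta1 rose (1.16, SE 0.31, adjusted p = 0.0062) and Tnnt2 fell (-1.80, SE 0.33, adjusted p = 0.00029) on the log2 scale. Myog and Ckm were at 0.03 FPKM or less in every sample. The 5 of 6 endothelial markers that the files list summed to 0.78 to 1.08 FPKM on day 0 and 0.24 to 0.37 later, with Vwf the most abundant on day 0 and Pecam1 later, and the endothelial receptor Kdr was at 0.05 FPKM or less. Vwf fell in the early phase (-2.95, SE 0.25, adjusted p = 2.5e-08), and Pecam1 rose in the late phase (1.01, SE 0.35, adjusted p = 0.027). However, Vwf passed the filter on low counts through day 0 alone and Pecam1 through day 8 alone, so the filter favoured these directions. Pecam1 held at most 20 expected counts in any sample. The 6 macrophage markers summed to 2.86 to 4.04 FPKM on day 0, 1.95 to 2.26 on day 4 and 2.34 to 3.23 on day 8, with Lyz2 the most abundant by mean on day 0 and Cd68 later, and Ptprc at 0.04 FPKM or less. Lyz2 fell in the early phase (-2.10, SE 0.32, adjusted p = 2.1e-05) and rose in the late phase (1.25, SE 0.36, adjusted p = 0.0093). The part of these markers in the changes of the members was not tested either.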

How the data were processed

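The authors cleaned the reads, mapped them with HISAT/Bowtie2 and quantified genes with RSEM, and the genome build is not given in the sources used here. The deposited expected counts are not normalized (29.8% of the values listed over all samples differ from a whole number by more than 1e-09), the deposited FPKM values are scaled by the authors to gene length and depth, and the deposited effective length is in other units (bases). The files list values above 0, and a gene not listed in a sample was taken as 0. Expected counts were rounded and fitted with edgeR 4.0.16 (R 4.3.3). Genes passed filterByExpr by day (13154 genes), TMM factors were 0.954 to 1.05, and all 9 samples entered a single quasi-likelihood model with a coefficient per day. P-values were adjusted by Benjamini-Hochberg. The SE is the size of the log2 fold change divided by the square root of F. Depth was 18216114 to 20452144 expected counts per sample, where the floor of 3 counts equals 0.1467 to 0.1647 CPM, and the common biological coefficient of variation was 0.0538. Samples of a day differed by more than sampling noise (chi-square per gene 2.4 to 10.7).

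Members and gene lists were chosen with earlier results of these data known. The text gives every member and, per list, direction and comparison, at most 4 genes called at over 2-fold. It also gives the 3 genes most correlated with each target among those whose mean log2 CPM reached 1. Ptpn14, Nphp4, Pdgfra and Col1a1 are also named where they were called at less than 2-fold. Sav1, Lats1, Lats2, Amotl1, Vgll3, Axl, Myof and the markers named to check the labels were added after their values were seen. Shared 50-base stretches of GENCODE vM21 transcripts covered at most 0.548% of a member. Promoters are from RefSeq. In simulated data for day 4 against day 0 (12658 genes), 100 of 100 genes changed by 3-fold and 92 of 100 changed by 1.5-fold were recovered, with 10 unchanged genes called. The alternatives were RLE, upper-quartile and library-size scaling, a minimum of 10 counts in every sample or no filter, DESeq2 1.42.0, edgeR's exact test, limma 3.58.1 on log2(FPKM + 1) and log2(FPKM + 0.1), unrounded counts, a replicate block, a model of the 2 days compared and leaving out each sample.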

Additional observations from a re-analysis of the deposited data

How the results depend on the processing

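Of 622 alternative log2 fold changes of the members, 607 kept their direction and their side of the call at over 2-fold, 4 gained this call in the same direction, all for Ctgf in the late phase, and 11 changed sign, all for Yap1 or Tead3 in the early phase. Calls at any fold that were lost or gained are given with each member above. For Yap1 the value was 0.00 with no filter and 0.00 with at least 10 counts in every sample, -0.01 to 0.00 when a sample was left out and -0.07 to 0.00 over all alternatives. For Tead3 it was -0.02 with upper-quartile factors, -0.03 with the library size alone and -0.03 with limma at either pseudocount, and from -0.00 to 0.08 when a sample was left out. Requiring at least 10 counts in every sample left Ctgf and Ankrd1 untested, so that 1 member was called lower at over 2-fold in the early phase and 1 in the whole process. It also gave 831 genes called higher in the early phase, and 310 higher and 173 lower in the late phase, against 1285, 558 and 370. With limma on log2(FPKM + 1) the calls at over 2-fold were 708 higher and 565 lower in the early phase, 224 and 136 in the late phase, and 753 and 528 in the whole process.

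In the late phase, 2 members were called lower at over 2-fold with DESeq2 and 2 with edgeR's exact test, and 1 to 2 when a sample was left out. At any fold, 1 member was called higher in the late phase with the library size alone, with limma at a pseudocount of 1 and at 0.1, and 1 to 2 when a sample was left out, and 2 to 6 were called lower. The model of the 2 days compared did not test Ctgf and Ankrd1 in the late phase. Shares from CPM changed the sign of 3 small differences, that of Tead2 between day 8 and day 0 (2.41 percentage points) and those of Tead3 (0.718) and Tead1 (0.164) between day 8 and day 4.

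Deviations of samples with the same replicate number correlated at -0.0348 to 0.075, and those with other numbers at -0.1 to 0.0628. Such weak correlations cannot settle whether the numbers pair the samples. With a replicate block the calls at over 2-fold were 1287 higher and 1053 lower in the early phase, 556 and 367 in the late phase, and 1360 and 1010 in the whole process, and no call of a member changed. Depth limits Ctgf and Ankrd1 at day 4 and day 8, where samples held 2 to 14 expected counts, so that among the members their late changes and the size of their falls are the least precise values. With 3 samples per day no exact test of a single ratio can go below p = 0.1.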
